A study of Mus musculus with 8 samples.

Results

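HMG box factors bind DNA through the high mobility group box, a fold that sits in the minor groove and bends the helix. The genes described here were Lef1, Tox, Tox2, Tox3, Sox4, Hmgb1, Hmgb2 and Hmgb3. Probe sets were taken where the annotation of the array gave 1 of these symbols and no other, and all probe sets of each gene were kept. This gave 20 probe sets of 7 genes among the 45101 probe sets of the array. Hmgb1 had 0 such probe sets, since the 5 that carry its symbol carry other symbols too, and it is not analysed here.

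The study profiled double-positive thymocytes, the immature T cells with both CD4 and CD8, on 8 Affymetrix mouse arrays, 1 array per mouse. All mice were Tcra-/-, which holds cells before positive selection, all are listed with Cd4-Cre, a recombinase expressed from Cd4 control elements, and all were 4 to 5 weeks old. Cells were enriched on columns with an antibody against CD4. By title and genotype field, 4 arrays were Control (c-Myb sufficient) and 4 were Mutant (c-Myb deficient), but the source names give the Control mice the Mybf/f genotype and the Mutant mice Mybf/w. Every direction below is therefore that of the arrays as labelled, Mutant against Control. Myb, which encodes the targeted factor, was not lower on the arrays labelled Mutant: its brightest probe set read 8327 to 10388 on Control and 10512 to 11754 on Mutant arrays (0.28 ± 0.08, SE, adjusted p = 0.0845 in limma). Its dimmest probe set was called higher, at 4183 to 5158 on Control and 5458 to 6396 on Mutant arrays (0.36 ± 0.08, adjusted p = 0.0327), and on the remaining one the groups overlapped (0.04 ± 0.08, adjusted p = 0.816). The position of these probes against the floxed exons is unknown here, so they do not settle which label is right.

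Lef1 and its relative Tcf7 are DNA-binding partners of beta-catenin, the effector of canonical Wnt signalling, and they act with much overlap in the early development of thymocytes. Tox is required in the mouse for development of the CD4 lineage after positive selection, and Sox4 acts in early lymphoid differentiation. The Hmgb proteins are abundant chromatin proteins that carry a pair of boxes, bind with little sequence preference and, in the case of Hmgb1 and Hmgb2, help the RAG recombinase to bind and cut its targets.

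Double-positive identity was checked on 10 markers. Of these, 9 had a probe set and all 9, Cd4, Cd8a, Rag1 and Dntt among them, were above the dim limit on all 8 arrays. Of these 9, 2 were called lower: Arpp21, which read 4596 to 5284 on Control and 2532 to 3089 on Mutant arrays (-0.77 ± 0.08, SE, adjusted p = 0.000632 in limma), and the recombinase gene Rag2, given below. The limit was a signal of 33.8, the median of the whole table. Summed signal over these markers was 58854 to 62120 on Control and 54078 to 57699 on Mutant arrays. Markers of other cells moved with the groups as well: the sum over 8 stroma and endothelium markers, with Foxn1, Col1a1, Pdgfra and Cdh5 dim on every array, was 813 to 867 on Control and 557 to 811 on Mutant arrays. Most of that sum came from Pecam1 (651.1 to 711.8 and 387.4 to 646.9, adjusted p = 0.19 in limma). Epcam was apart too (73.9 to 116.7 and 43.5 to 72.8, adjusted p = 0.113). Krt5 overlapped (16.7 to 36.1 and 22.8 to 42.6), and 0 of these 3 tested markers were called. The sum over the 7 B cell markers present was 7145 to 7377 and 7670 to 8608, with Cd79a and Ebf1 dim throughout and nearly all of the sum from Ighm (6579 to 6881 and 7106 to 8078, adjusted p = 0.0946), while Cd79b overlapped (319.5 to 557.4 and 417.4 to 610.6). The sum over 6 markers of innate-like T and NK cells, led by Gzma, was 2020 to 2493 and 3071 to 4209, with Zbtb16 and Ncr1 dim throughout. Gzma, the only marker of that list that could be tested, was called higher. It read 1980 to 2400 on Control and 2962 to 4066 on Mutant arrays (0.75 ± 0.11, SE, adjusted p = 0.00306 in limma). Sums over 8 macrophage and dendritic cell markers (276.6 to 501.5 and 364.6 to 444.6, Cd14 dim throughout), 4 erythroid markers (129.2 to 193.0 and 123.3 to 173.2, Hba-a1 dim throughout) and 5 granulocyte markers (47.9 to 93.2 and 78.8 to 194.5, Elane, Mpo and Camp dim throughout) overlapped between groups. Xist, the RNA of the inactive X chromosome, read 4129 to 5736 on the 4 Mutant arrays and 4359 on Control replicate 1, but 23.4 to 36.7 on the other Control arrays. The Y chromosome genes Eif2s3y and Kdm5d read 1217 to 1335 and 551.3 to 914.2 on Control replicates 2 to 4. Both were below the dim limit on Control replicate 1 and on all Mutant arrays. By Xist and these genes, Control replicates 2 to 4 came from male mice and the other arrays from female mice. Sex was thus unbalanced between the groups, and the Xist class used below splits the arrays by sex. The 18S rRNA control averaged 4363 on Mutant replicate 4 and 440.3 to 1114 elsewhere. The part of these differences in the results below was not tested beyond the values given.

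Of the 20 probe sets, 17 passed the filter on dim signals and were tested. Sox4 was lower on the arrays labelled Mutant by 5 of its 6 tested probe sets, and Tox and Tox3 by 1 probe set each. Lef1, Tox2, Hmgb2 and Hmgb3 had no call. In all 7 of 17 were called, all lower, at an adjusted p under 0.05 in limma, while 5.82% of the 22599 probe sets tested were called in either direction with 2.68% called lower and 3.14% higher. Mutant and Control arrays did not overlap for 8 of the 17, again all lower, while 14.3% of all tested probe sets did not overlap in either direction and 7.0% did so lower on Mutant arrays. The median difference of the 17 was -0.30 on the log2(signal + 16) scale, and that of all tested probe sets 0.008. The genes were chosen with earlier results of these data known, so these contrasts with all probe sets are not a test of the group. Of the 7 calls 5 were of Sox4, so they are not 7 separate results. The count of 7 fell to 4 without Control replicate 3, Mutant replicate 2 or Mutant replicate 3. Over all probe sets the count of 1316 calls fell to 561 without Control replicate 3, 866 without Control replicate 4, and 742, 566 and 653 without Mutant replicates 1, 2 and 3. In bulk RNA, fewer cells of a type and less RNA per cell cannot be told apart.

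**Figure D1:**
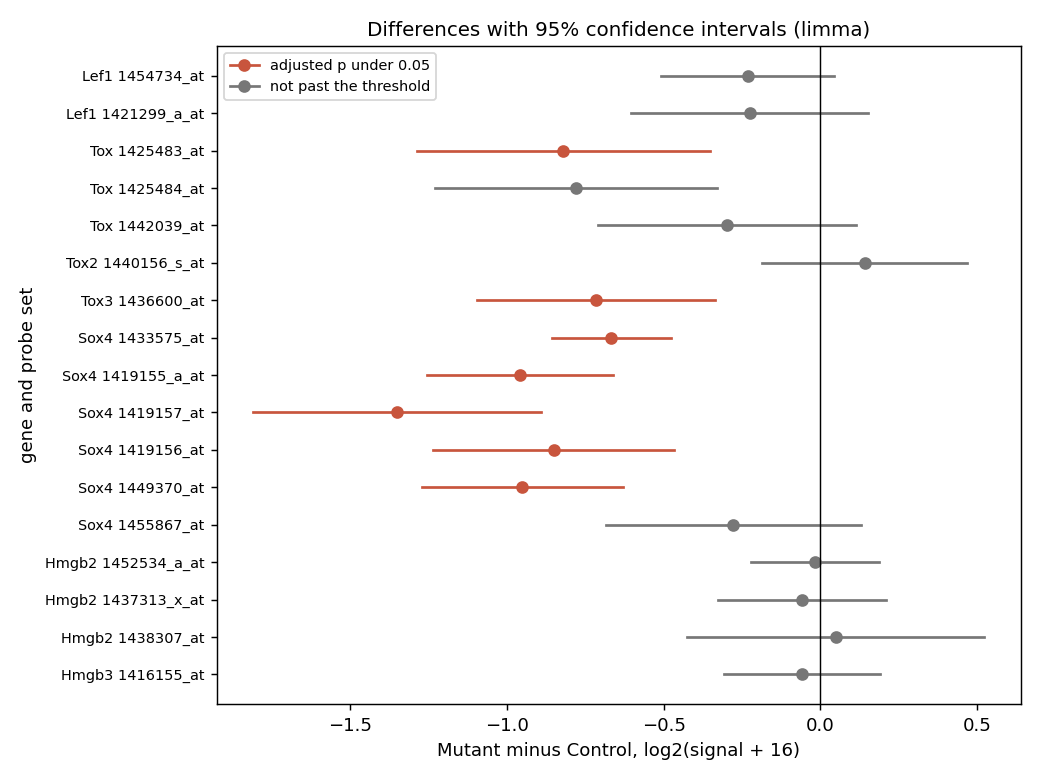
Mutant minus Control difference in log2(signal + 16) (x axis) for the 17 tested probe sets (y axis), as points with 95% confidence intervals from limma. Red marks an adjusted p under 0.05: 5 Sox4 probe sets and 1 each of Tox and Tox3, all to the left of 0, while the intervals of Lef1, Tox2, Hmgb2 and Hmgb3 cross 0.

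Sox4 is a member of the SoxC group and the gene with the most probe sets here. Its brightest probe set, 1433575_at, read 7342, 7950, 9763 and 7776 on Control replicates 1 to 4 and 4928, 4966, 5300 and 5355 on Mutant replicates 1 to 4. All 4 Mutant arrays lay below the lowest Control array, and they lay closer together than the Control arrays. The group means were 8208 ± 1068 and 5137 ± 222 (SD, n = 4 each), so the Mutant mean was 62.6% of the Control mean. The log2 difference was -0.67 ± 0.09 (SE; limma adjusted p = 0.00182). Control replicate 1, the Control array with high Xist, was the lowest of the Controls here and still lay above every Mutant array.

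Probe set 1419157_at showed the largest Sox4 difference. It read 1634, 1342, 2434 and 1879 on Control replicates 1 to 4 and 856.8, 724.6, 776.5 and 464.7 on Mutant replicates 1 to 4. The groups did not overlap, and Mutant replicate 4 was the lowest array of all. The difference was -1.35 ± 0.21 (SE), a 2.55-fold higher fitted level in Control (adjusted p = 0.00428 in limma).

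Probe set 1419155_a_at read 1901, 1592, 2433 and 1757 on Control and 885.4, 866.6, 1037 and 1104 on Mutant arrays, a difference of -0.96 ± 0.13 (SE, adjusted p = 0.00268 in limma). Probe set 1449370_at read 1217, 1073, 1381 and 898.1 on Control and 518.8, 599.3, 509.9 and 693.6 on Mutant arrays, with a difference of -0.95 ± 0.15 (adjusted p = 0.00417). In both, every Mutant array was below every Control array, and the Mutant mean was 50.7% and 50.8% of the Control mean. Probe set 1419156_at read 1313, 1093, 1681 and 1235 on Control and 638.7, 582.6, 727.1 and 998.4 on Mutant arrays. Here Mutant replicate 4 came close to the lowest Control array without reaching it. Its difference of -0.85 ± 0.17 had an adjusted p of 0.0182, and the call was lost without Control replicate 3 (adjusted p = 0.061) or without Mutant replicate 1, 2 or 3 (adjusted p = 0.0603, 0.0624 and 0.0501 in limma).

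Mutant replicate 4 thus held opposite places on neighbouring Sox4 probe sets. It was the highest Mutant array on 4 of the 5 called probe sets and the lowest on 1419157_at. Control replicate 3 was the highest Control array on all 5. The 4 probe sets other than 1433575_at were annotated to the same sequence record, so they are not separate samplings of the transcript.

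The other Sox4 probe sets were dimmer. Probe set 1455867_at read 63.4 to 88.1 on Control and 41.6 to 72.3 on Mutant arrays, its groups overlapped, and its difference of -0.28 ± 0.18 was not called (adjusted p = 0.441 in limma). The per-array gap between 1455867_at and 1419157_at, the Sox4 probe sets with the smallest and largest fall, differed between groups by 1.07 on the log2 scale. A two-sided exact permutation test over 70 labellings gave p = 0.0571 for that gap, and 0.114 after Benjamini-Hochberg adjustment over 4 genes. The pair was chosen for this difference, so the p is biased low. Probe set 1455867_at also lay not far above the dim limit, where this scale understates a fold change. Probe sets 1458332_x_at and 1443778_at were at or below the dim limit on all 8 arrays and were not tested.

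**Figure D2:**
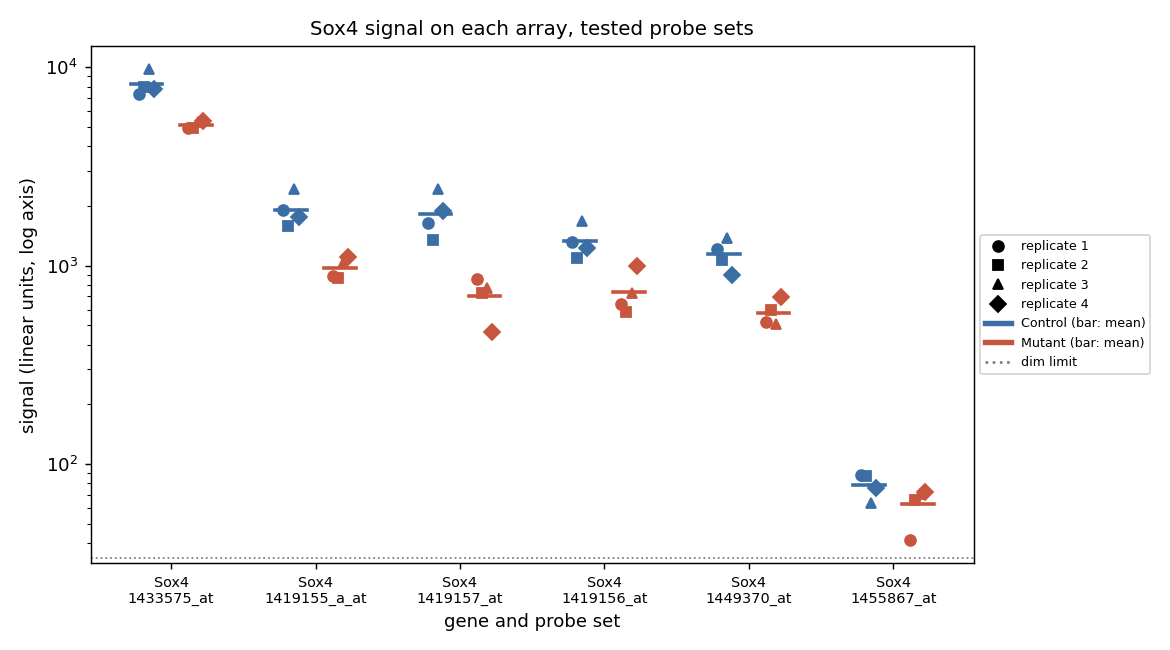
Signal of the 6 tested Sox4 probe sets (x axis) on each array (y axis, log scale), with 1 marker shape per replicate number, bars at the group means and a dotted line at the dim limit of 33.8. On the 5 brighter probe sets all Mutant arrays lie below all Control arrays, while on 1455867_at the groups overlap.

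With the Xist class of each array (high or low) as a term in the model, where the Mutant arrays are set against Control replicate 1 in effect, the 5 called Sox4 probe sets differed by -0.52 to -1.23 and none was called (adjusted p = 0.18 to 0.44 in limma). Each of these 5 had an unadjusted limma p under 0.05 in that fit, from 0.00143 for 1449370_at to 0.0159 for 1419156_at, and no other tested probe set of these genes did. Differences of 1449370_at were -1.06 with and -0.95 without the Xist class, and those of 1433575_at were -0.52 and -0.67. That fit called 8 probe sets in all, with 1794 at an unadjusted p under 0.05, and its median SE was 0.255 against 0.159 without the term.

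Tox encodes a nuclear factor with 1 HMG box that is induced during selection of thymocytes. Probe set 1425483_at read 282.6, 286.9, 428.1 and 503.2 on Control replicates 1 to 4 and 272.5, 200.6, 179.1 and 160.3 on Mutant replicates 1 to 4. The groups did not overlap, but the gap between Mutant replicate 1 and Control replicate 1 was narrow. Means were 375.2 ± 108.9 and 203.1 ± 49.1 (SD, n = 4 each), a difference of -0.82 ± 0.21 (SE, adjusted p = 0.0486 in limma). The call was lost without Control replicate 3 (adjusted p = 0.148) or 4 (0.111) and without Mutant replicate 2 (0.121), 3 (0.125) or 4 (0.0874). It was also lost with the Xist class in the model, where the difference was -0.47 (adjusted p = 0.811).

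Probe set 1425484_at of Tox read 193.6, 208.6, 308.4 and 294.6 on Control and 169.4, 97.3, 126.4 and 167.0 on Mutant arrays. The groups did not overlap, and the difference of -0.78 ± 0.20 just missed the threshold (adjusted p = 0.0504 in limma). This probe set passed it without Mutant replicate 4 (adjusted p = 0.043), with a pseudocount of 64 (0.0487) and with array weights (0.0135). It was not called in any other setting. With the Xist class it differed by -0.45. Probe set 1442039_at read 90.5 to 149.5 on Control and 83.0 to 132.8 on Mutant arrays, so the groups overlapped, with a difference of -0.30 ± 0.19 (adjusted p = 0.412) that turned to 0.10 with the Xist class. Control replicate 1 was the lowest Control array on all 3 Tox probe sets. The per-array gap between 1442039_at and 1425483_at differed between groups by 0.52 on the log2 scale. By a two-sided exact permutation test this gave p = 0.0286, the lowest value possible with 70 labellings, and 0.114 after Benjamini-Hochberg adjustment over the 4 genes so compared. The probe sets of each pair, here and for the other genes, were chosen for this same difference on these arrays. Their p-values are therefore biased low and do not test whether probe sets of a gene differ.

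Tox3, a close relative of Tox, had 1 probe set, 1436600_at. It read 276.3, 403.7, 423.7 and 299.5 on Control replicates 1 to 4 and 186.1, 185.0, 187.7 and 265.7 on Mutant replicates 1 to 4. No Mutant array reached the lowest Control array, though Mutant replicate 4 stood well above the other Mutant arrays. The difference was -0.72 ± 0.17 (SE, adjusted p = 0.0365 in limma). The call was lost when Control replicate 2, 3 or 4 was left out (adjusted p = 0.0786, 0.122 and 0.0504) and when Mutant replicate 1, 2 or 3 was left out (adjusted p = 0.0993, 0.114 and 0.0987). With the Xist class it differed by -0.41 (adjusted p = 0.778). Tox2 was near the dim limit: 1440156_s_at read 55.9 to 63.2 on Control and 59.1 to 78.1 on Mutant arrays, a difference of 0.14 ± 0.15 (adjusted p = 0.645), and 1457757_at was below the limit on every array and not tested.

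Lef1 differed less. Its brighter probe set 1454734_at read 1403, 997.4, 1436 and 1438 on Control replicates 1 to 4 and 1191, 1135, 1006 and 1106 on Mutant replicates 1 to 4. The groups overlapped because of Control replicate 2, which fell below all 4 Mutant arrays, while the other Control arrays lay above them. The difference was -0.23 ± 0.12 (SE, adjusted p = 0.328 in limma), with a 95% interval of -0.51 to 0.04. Without Control replicate 2 it was -0.36 and past the threshold (adjusted p = 0.045). Probe set 1421299_a_at read 735.0, 512.0, 715.0 and 736.9 on Control and 682.9, 677.1, 528.7 and 427.1 on Mutant arrays, with a difference of -0.23 ± 0.17 (adjusted p = 0.509). It again had Control replicate 2 as the lowest Control array. The differences of the Lef1 probe sets lay within 0.007 of each other (two-sided exact permutation p = 0.971 over 70 labellings), but were 0.14 apart without Mutant replicate 4, with the lowest exact p possible there (0.0286).

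The Hmgb genes showed no call. Hmgb2, which is most abundant in dividing cells, read 5978 to 7726 on Control and 5919 to 7556 on Mutant arrays by 1452534_a_at, and the groups overlapped almost fully. The difference was -0.02 ± 0.09 (SE, adjusted p = 0.945 in limma), with a 95% interval of -0.22 to 0.19. Its probe sets 1437313_x_at and 1438307_at differed by -0.06 ± 0.12 and 0.05 ± 0.21. For Hmgb2 the gap between the highest and lowest difference was 0.11 (two-sided exact permutation p = 0.514). Hmgb3, on the X chromosome, read 1513 to 2033 on Control and 1390 to 1752 on Mutant arrays by 1416155_at, a difference of -0.06 ± 0.11 (adjusted p = 0.823) with a 95% interval of -0.31 to 0.19. Differences inside these intervals remain possible, and the intervals are not a limit of detection.

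**Figure D3:**
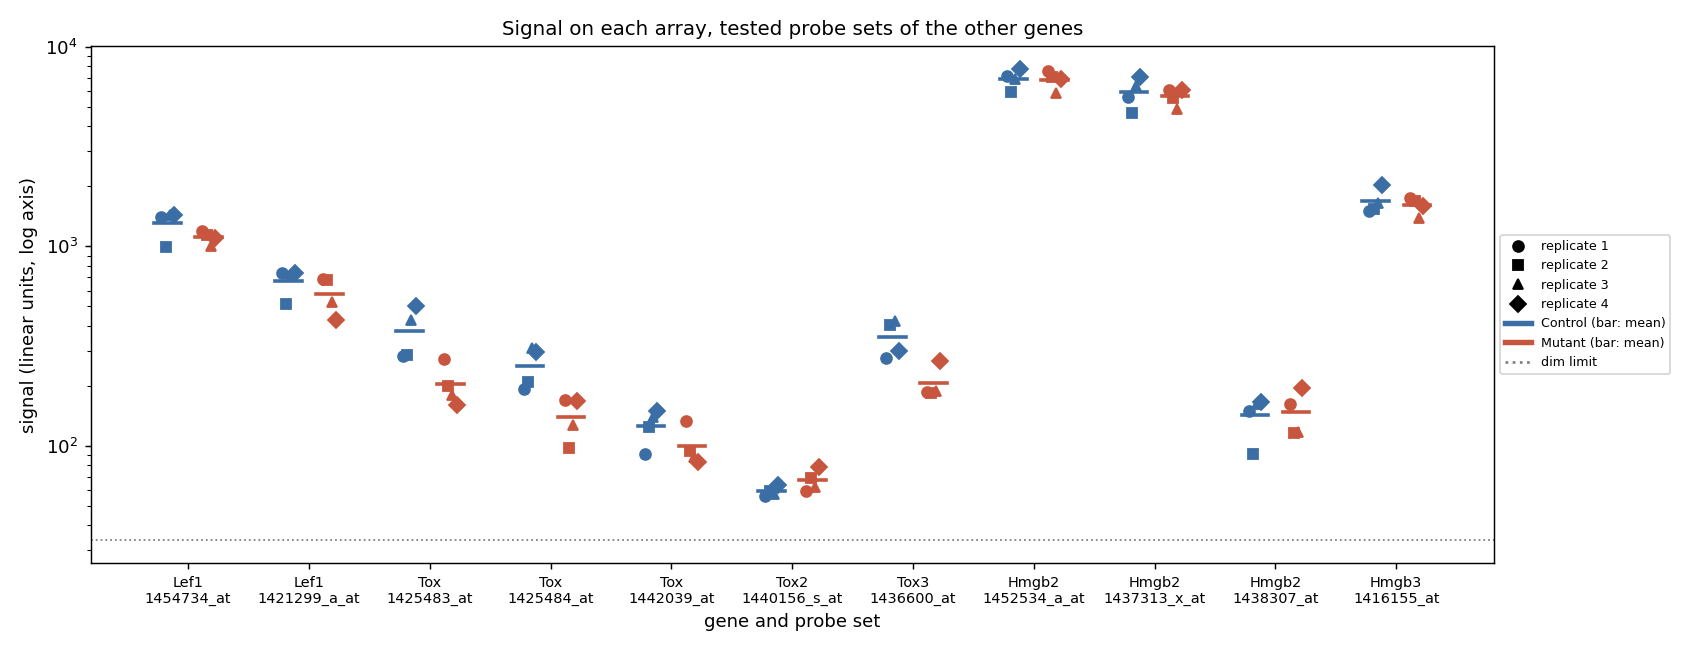
Signal of the 11 tested probe sets of Lef1, Tox, Tox2, Tox3, Hmgb2 and Hmgb3 (x axis) on each array (y axis, log scale), with 1 marker shape per replicate number, bars at the group means and a dotted line at the dim limit of 33.8. The groups are apart on Tox 1425483_at, Tox 1425484_at and Tox3 1436600_at and overlap on the rest; Control replicate 2 is low on both Lef1 probe sets.

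Promoter sequence was at hand for 7 of the 8 genes from RefSeq (GRCm38.p6), 250 bases before to 50 bases after each listed start, and not for Tox. The windows of Sox4 and Tox3, the called genes with a sequence, are shown 5′ to 3′ on the strand of the gene because these members fell in a comparison about c-Myb. Capitals mark AACNG, the core of the site that Myb proteins bind, searched on both strands.
Sox4, chr13:28953650-28953949, minus strand: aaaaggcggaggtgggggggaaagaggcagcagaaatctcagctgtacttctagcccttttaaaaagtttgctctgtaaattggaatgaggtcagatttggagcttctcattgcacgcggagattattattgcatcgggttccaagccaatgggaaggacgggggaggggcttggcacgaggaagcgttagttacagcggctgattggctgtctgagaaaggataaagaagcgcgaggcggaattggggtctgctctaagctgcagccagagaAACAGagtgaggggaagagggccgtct
Tox3, chr8:90348203-90348502, minus strand: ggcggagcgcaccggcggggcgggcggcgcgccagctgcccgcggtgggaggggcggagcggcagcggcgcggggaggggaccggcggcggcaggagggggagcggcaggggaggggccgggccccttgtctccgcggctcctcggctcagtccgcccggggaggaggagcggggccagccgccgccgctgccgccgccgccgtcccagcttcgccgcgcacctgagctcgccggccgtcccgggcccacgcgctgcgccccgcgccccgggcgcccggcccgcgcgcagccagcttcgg
The Sox4 window held 1 match, starting 23 bases downstream of the start site, and the Tox3 window held 0. Of all 32851 windows of that length, 80.3% held at least 1 match. The window of Sox4 had a GC content of 52.0% and that of Tox3 85.3%. The Lef1 and Tcf7 core CTTTGA, found in 5257 of all windows, and the Sox core AACAAT, found in 3521, were in neither. These matches are letters in the window and do not show binding.

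The profile across the 8 arrays of a gene was compared with that of every other gene by the root mean square difference of mean-centred log2 signals. For Sox4 1433575_at the nearest of 9940 genes were Abhd13 (0.071), Ralgds (0.089) and Mbtd1 (0.093), against a median of 0.406 over all genes. For Tox 1425483_at they were Fbln2 (0.19), Fbxo30 (0.195) and Fam167a (0.20), with a median of 0.549. For Lef1 1454734_at they were Otud7b (0.056), Rexo5 (0.057) and Ipo9 (0.059), with a median of 0.278. The profiles share the same 8 arrays and groups. Mutant minus Control differences were -0.595, -0.778 and -0.561 for Abhd13, Ralgds and Mbtd1. Those of Fbln2, Fbxo30 and Fam167a were -0.784, -0.709 and -0.619, and those of Otud7b, Rexo5 and Ipo9 -0.196, -0.188 and -0.279.

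Other genes with an HMG box were not called. Of 29 on the list 14 could be tested and 0 passed in limma, with 2 at an unadjusted p under 0.05, while 7.24% of the 9941 genes tested by their brightest probe set were called. Their median difference was -0.13, against 0.02 for all genes, and 13 of the 14 were below 0. Hbp1, a repressor that restrains proliferation, read 1707 to 2091 on Control and 1413 to 1789 on Mutant arrays (-0.24 ± 0.10, SE, adjusted p = 0.186). Pbrm1, a subunit of a SWI/SNF remodelling complex and the brightest of the list, read 3060 to 3406 and 2790 to 3275 (-0.09 ± 0.08, adjusted p = 0.542), and Tox4, a relative of Tox, 593.1 to 775.3 and 557.4 to 693.6 (-0.15 ± 0.11, adjusted p = 0.492). Sox2, Sox5, Sox6, Sox7, Sox9, Sox11, Sox17, Sox18 and Hmgb4 were dim on every array, and Tcf7 is not analysed here.

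Among 22 tested genes of the beta-catenin pathway, in which Lef1 acts, 2 rose and 1 fell, with 5 at an unadjusted p under 0.05 in limma and a median difference of -0.08, against 7.24% of all genes called. Tle2, a corepressor of the Groucho family, read 226.6, 175.5, 69.8 and 83.7 on Control and 283.7, 450.7, 663.5 and 269.7 on Mutant arrays (1.52 ± 0.36, SE, adjusted p = 0.0358 in limma). Every Mutant array lay above every Control array. Pygo2, a coactivator of beta-catenin, rose from 398.8 ± 27.7 to 572.7 ± 70.9 (SD, n = 4; 0.50 ± 0.11, adjusted p = 0.0296), and the corepressor gene Ctbp2 fell from 96.6 ± 14.9 to 51.8 ± 4.2 (-0.72 ± 0.15, adjusted p = 0.0221), with -0.27 on its other probe set. Each call was lost when certain arrays were left out: Tle2 without Control replicate 3 or 4 or Mutant replicate 1, 2 or 3 (adjusted p = 0.106, 0.0892, 0.0557, 0.108 and 0.0948), Pygo2 without Control replicate 2, 3 or 4 or Mutant replicate 2 or 3 (0.0541, 0.107, 0.0605, 0.0917 and 0.076), and Ctbp2 without Control replicate 1 or 3 or Mutant replicate 1 or 2 (0.0635, 0.0815, 0.0571 and 0.0706). The differences themselves ranged from 1.28 to 1.78 for Tle2, 0.43 to 0.57 for Pygo2 and -0.82 to -0.67 for Ctbp2 over the 8 fits that each left out 1 array. Ctnnb1, beta-catenin itself, differed by -0.06 ± 0.07 (adjusted p = 0.664), and Axin2, a target gene that feeds back on the pathway, read 175.0 to 185.3 on Control and 114.4 to 190.3 on Mutant arrays (-0.31 ± 0.15, adjusted p = 0.28).

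**Figure D4:**
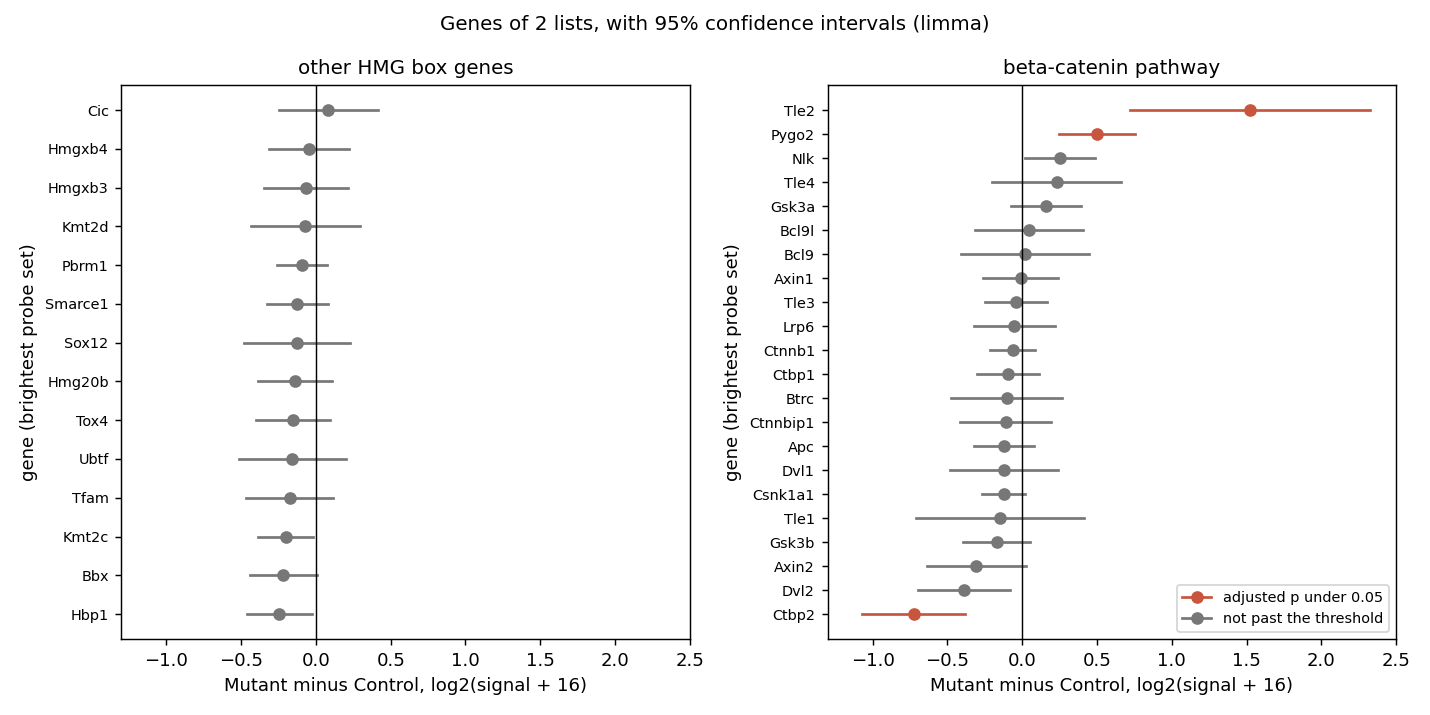
Mutant minus Control difference in log2(signal + 16) (x axis) for 14 other HMG box genes and 22 genes of the beta-catenin pathway (y axis), each by its brightest probe set, with 95% confidence intervals from limma. Red marks an adjusted p under 0.05: none among the HMG box genes, and Tle2, Pygo2 and Ctbp2 in the pathway.

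Genes tied to these factors in T cells had 1 rise and 1 fall among 23 tested, with 9 at an unadjusted p under 0.05 in limma and a median difference of 0.025. Those 2 calls among 23 are near the 7.24% called over all genes. That share is at the adjusted threshold. No share of all genes at an unadjusted p under 0.05 is given here for the lists, so those counts have no background to be read against. Ccr7, a chemokine receptor of mature thymocytes, read 18.1 to 111.1 on Control and 731.7 to 933.7 on Mutant arrays (3.65 ± 0.35, SE, adjusted p = 0.00042 in limma). Control replicates 3 and 4, at 31.4 and 18.1, were below the dim limit, and the size of this difference moved from 2.90 with a pseudocount of 64 to 4.08 with a pseudocount of 1, so it is not a measured fold. The recombinase gene Rag2 read 3980 to 4240 on Control and 2738 to 3266 on Mutant arrays (-0.41 ± 0.07, adjusted p = 0.00865). With the Xist class the differences were 2.72 for Ccr7 (adjusted p = 0.0804), -0.47 for Rag2 (0.227), 0.74 for Tle2 (0.812), 0.39 for Pygo2 (0.669) and -0.90 for Ctbp2 (0.276), so none was called. Rag2 and Ctbp2 lay further from 0 in that fit, and Ccr7, Tle2 and Pygo2 lay nearer to it. Among 4 tested HMG chromatin proteins without a box 0 were called in limma, with 1 at an unadjusted p under 0.05 and a median of 0.17, and the brightest, Hmgn1, differed by 0.29 ± 0.10 (adjusted p = 0.127). Among 7 tested receptors and partners of the Hmgb proteins 0 were called, with 3 at an unadjusted p under 0.05 and a median of 0.11. The brightest of these, Cd24a, read 4846 to 7219 on Control and 3288 to 4990 on Mutant arrays (-0.56 ± 0.16, adjusted p = 0.063), and 1 of its 3 tested probe sets was called.

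**Figure D5:**
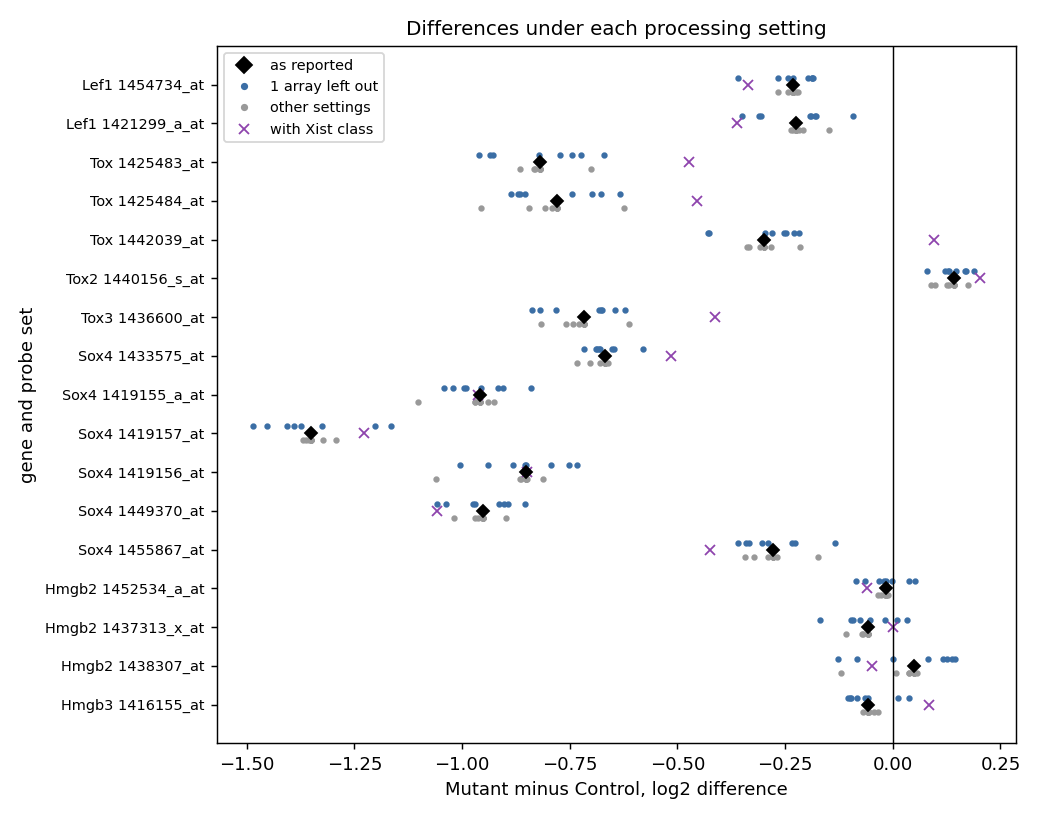
Mutant minus Control log2 difference (x axis) of the 17 tested probe sets (y axis) as reported (diamonds), with 1 array left out (blue), under other settings (grey) and with the Xist class in the model (crosses). All values of the 5 called Sox4 probe sets lie below 0, those of Tox 1425483_at and Tox3 move toward 0 with the Xist class, and those of Hmgb2 and Hmgb3 lie on both sides of 0.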

How the data were processed

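Total RNA of double-positive thymocytes was labelled with biotin and hybridised to 8 one-colour Affymetrix arrays, 4 Control and 4 Mutant by title. The deposited table holds linear intensity (signal) values, made with GCOS per the submitters' processing notes, with no version or setting stated there. The 2% trimmed mean was 250.0 on every array, so arrays had been scaled to a common level, which removes differences in total RNA per cell. No scan or hybridisation batch was known, so batches were not tested. For arrays, their number limits the precision.

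From there log2(signal + 16) was taken, and a fold change on this scale understates that of dim genes. Of 45101 probe sets 64 controls were left out. Probe sets with a signal above 33.8 on at least 4 arrays, 22599 in all, entered limma 3.58.1 under R 4.3.3 (lmFit, eBayes with a variance trend, two-sided, Benjamini-Hochberg over all tested, threshold 0.05). The annotation gave 34945 probe sets 1 symbol, 932 several and 9160 none, and 34741 of the single-symbol probe sets had their gene identifier in the RefSeq table of GRCm38.p6, used for current symbols. Genes of lists were represented by their brightest tested probe set. Pairs of probe sets were compared with exact permutation tests, and the method was tested on simulated data. Named genes were all members, Myb, Xist, and up to 3 called genes of each list with the largest difference or else the brightest, plus the 3 most alike genes for Lef1, Tox and Sox4. Hbp1, Tox4, Ctnnb1 and Axin2, and the markers named, were added outside that rule after their values were seen. Members and lists were chosen with earlier results of these data known. Alternatives changed the normalization, pseudocount, filter, probe set choice, variance model, weights and covariates, or left out each array. Work in Python 3.11.15 used pandas 2.3.3 and matplotlib 3.10.9.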

Additional observations from a re-analysis of the deposited data

Results flagged for a closer look

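By Dixon's test, 1 array stood apart from the rest of its group in 3 of 50 sets of 4 arrays, where chance flags about 1 in 20. Control replicate 2 was low for Lef1, at 997.4 against 1403 to 1438 on 1454734_at and 512.0 against 715.0 to 736.9 on 1421299_a_at. Mutant replicate 4, the array with the high 18S rRNA control, was high for Tox3 on 1436600_at, at 265.7 against 185.0 to 187.7.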

How the results depend on the processing

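The 5 called Sox4 probe sets stayed below 0 in all 96 alternative values and were called in 87; the 9 others were the 5 with the Xist class (-0.515 for 1433575_at) and 4 of 1419156_at with 1 array left out. Without 1 array, 1433575_at ranged from -0.717 to -0.581. The count over all probe sets was 2631 with array weights, 8 with the Xist class and 561 to 1493 without 1 array. The count of these genes' probe sets was 3 with 1 probe set a gene (by construction), 0 with the Xist class (limma, 5 at an unadjusted p under 0.05) and 4 to 7 without 1 array. Tox 1425483_at lost its call with median centring (-0.831), a pseudocount of 1 (-0.866), no dim filter, no variance trend or the replicate block (-0.820 each) and the Xist class (-0.472), and ranged from -0.96 to -0.67 without 1 array. Tox3 lost it with no dim filter, no variance trend or the replicate block (-0.717 each) and the Xist class (-0.412), with -0.837 to -0.622 without 1 array. Lef1 1454734_at ranged from -0.36 to -0.186. With the Xist class Tox 1442039_at turned to 0.096, Hmgb3 to 0.084 and Hmgb2 1438307_at to -0.049, the last also with array weights (-0.121). Without 1 array, differences turned sign for Hmgb2 1452534_a_at (-0.086 to 0.052), 1437313_x_at (-0.169 to 0.033) and 1438307_at (-0.127 to 0.145) and Hmgb3 (-0.104 to 0.037). None of these had a call. Gaps between probe sets ranged from -0.063 to 0.14 for Lef1 (the last with exact p = 0.0286, without Mutant replicate 4), 0.453 to 0.631 for Tox and 0.826 to 1.318 for Sox4 without 1 array, and that of Sox4 was 1.117 (exact p = 0.0286) with a pseudocount of 64. Of 70 genes tested in the 5 lists 5 were called, a share near the 7.24% of all genes, and, in alternatives added after seeing the data, 8 with quantile normalization, 3 with no dim filter, 10 with array weights, 0 with the Xist class (4 at an unadjusted p under 0.05) and 2 to 8 without 1 array. Causes were not tested. Replicate numbers gave no clear sign of pairing: deviations of same-numbered arrays from their group means correlated at -0.372 to 0.325. The replicate block called 1081 probe sets, and not Tle2, Pygo2 or Ctbp2 (adjusted p = 0.05, 0.0633 and 0.0532). The Xist class fit assumes that Control replicate 1 varies like the others. The dim probe sets of Tox2 and Sox4 were not tested.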
